A study of Mus musculus with 15 samples.

Results

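Transcripts of the caveolin and cavin genes were followed across 15 RNA-seq libraries of macrophages sorted from mouse ear skin. The genes are Cav1, Cav2, Cavin1, Cavin2, Cavin3 and Ehd2, 6 of the 42454 entries of the deposited table, and each was found once by its exact symbol. The set was chosen by its Cav1 values: Cav1 was high in interstitial macrophages of punched ears, and the other genes were added for the proteins they encode, with earlier results of these data known. Differences of Cav1 that involve the interstitial libraries are therefore given as descriptions without a test.

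All mice carried CX3CR1-creERT2/gfp and R26-tdT/+, received tamoxifen, and had the left ear punched 3 weeks later, with skin taken from both ears 10 days after the punch. Cells were CD11b+, CD64+ and Lin-. The 5 groups, named from the library titles, hold 3 libraries each. They are interstitial macrophages (gate GFP-/Tomato-) of the unpunched right ear (IM) and of the punched left ear (injIM), resident nerve-associated macrophages (gate GFP+/Tomato+) of the unpunched (sNAM) and the punched ear (injsNAM), and nerve-associated cells that were recruited to the punched ear (gate GFP+/Tomato-, recsNAM). The labels' reporter field follows the ear and not the population in the injIM and sNAM libraries, so it was not used. The gates depend on Cre and GFP expressed from the CX3CR1 locus, and the interstitial gate carries no mark of when its cells arrived. Libraries came from 3 mice, and which library came from which mouse is not given in the sources used here, so the p-values treat libraries as independent and measure only the spread between them. The age of the mice is likewise not given in the sources used here.

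Caveolae are flask-shaped pits of the plasma membrane. Caveolin-1 inserts into the inner leaflet and forms the pit together with the cavins, a family of soluble coat proteins of which cavin-1 is needed for caveolae to form in most cells. Caveolin-2 joins caveolin-1 in mixed oligomers, cavin-2 and cavin-3 shape and regulate the coat, and EHD2 is an ATPase that sits at the neck and holds caveolae at the surface. Endothelial cells, fat cells, smooth muscle and fibroblasts are rich in caveolae, whereas caveolin-1 in macrophages has also been studied outside caveolae, in lipid handling and receptor signalling.

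Values are normalized counts, for which the depositors scaled the reads of each library by a single factor, and errors after ± are SDs over the 3 libraries of a group. Recovered depth was 20.4 to 23.8 M reads in the IM, injIM and recsNAM libraries, 5.64 to 18.6 M in sNAM and 16.9 to 19.5 M in injsNAM. Of the 8656 genes tested, 0.139% to 0.751% had no read in any given IM, injIM or recsNAM library, against 3.89% to 25.8% in sNAM and 4.26% to 8.79% in injsNAM. The 12 macrophage markers summed to between 443247 and 708662 normalized counts in every library, and none was at 0 throughout a group. Their sums were lower in injIM (464335 to 528710) than in IM (591690 to 622050), without overlap. At the threshold given below, Itgam was called higher in injIM than in IM, and C1qa, C1qc, Cd14 and Mrc1 lower. Of all tested genes, 4.15% were called higher and 4.03% lower in that comparison. A gene was tested where its mean over the 15 libraries reached 100. Cav1, Cav2 and Cavin1 passed that filter, and Cavin2, Cavin3 and Ehd2, with means of 2.42, 28.05 and 54.9, did not. Differences are on the scale of log2(normalized count + 100), which understates changes of low genes, and a gene is called at an adjusted p under 0.05.

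Cav1 and Cav2 are neighbours on chromosome 6 of mm10, both on the plus strand. Cav2 spans 17281185 to 17289130 and Cav1 spans 17306335 to 17341328, with 17.2 kb between them. Cavin1 lies on chromosome 11 (100956736 to 100970617), Cavin2 on chromosome 1 (51289126 to 51302960), and Cavin3 (105480616 to 105482197) and Ehd2 (15946963 to 15967535) on chromosome 7. No other annotated gene overlaps Cav1, Cav2, Cavin1 or Cavin3. Cavin2 overlaps 9330175M20Rik and Ehd2 overlaps Gm24576, and the strand setting of the counting is not given in the sources used here, so both are uncertain.

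The 250 bases upstream of the first annotated Cav1 start and of the Cav2 start are shown. They were chosen because both of these neighbouring members were higher in punched-ear interstitial macrophages. The nearby genes Met and Tes, which are not members, were higher there too, and their upstream bases are not shown. The windows shown come from RefSeq on GRCm38.p6, plus strand, chr6:17306085-17306334 for Cav1 and chr6:17280935-17281184 for Cav2. Capitals mark every match, on either strand, to any of 5 motifs, and no matches overlap. The motifs were the GC box with letters GGGCGG, the CCAAT box, the TATA box with letters TATAAA, the AP-1 site with letters TGANTCA, and the nuclear receptor half-site with letters AGGTCA.
Cav1: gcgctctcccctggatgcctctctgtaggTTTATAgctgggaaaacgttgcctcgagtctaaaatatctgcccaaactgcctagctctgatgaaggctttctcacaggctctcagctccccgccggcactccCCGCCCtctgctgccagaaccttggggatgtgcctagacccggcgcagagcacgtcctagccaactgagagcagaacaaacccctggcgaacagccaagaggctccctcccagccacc
Cav2: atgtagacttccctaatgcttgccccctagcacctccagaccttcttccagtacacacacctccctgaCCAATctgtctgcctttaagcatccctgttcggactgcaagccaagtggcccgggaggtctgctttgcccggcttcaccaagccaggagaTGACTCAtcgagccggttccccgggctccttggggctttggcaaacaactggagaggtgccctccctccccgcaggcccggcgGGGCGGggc

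Both windows hold 1 GC box, which 32.7% of 32817 upstream windows of the same length also hold. The Cav1 window has 1 match to TATAAA, on the minus strand from position -221 to -216 before the start, and TATAAA matches occur in 12.4% of windows. The Cav2 window has CCAAT at -182 to -178 (33.8% of windows) and TGACTCA at -92 to -86, a match to the AP-1 motif found in 6.75% of windows. AGGTCA, present in 14% of windows, is in neither. RefSeq also lists a second Cav1 start at 17307640, whose upstream window holds none of these letters, and gene counts do not separate the starts. GC content was 59.6% before Cav1 and 62% before Cav2, against a median of 52.4% over all windows.

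In punched ears, Cav1 and Cav2 were both higher in interstitial macrophages and Cavin1 was lower, while Cavin3 and Ehd2 kept overlapping values and Cavin2 was close to absent. In replicates 1, 2 and 3, Cav1 stood at 272, 524 and 285 normalized counts in unpunched ears (IM) and at 5009, 6480 and 3484 in punched ears (injIM). The lowest punched-ear library was 6.65 times the highest unpunched one, so the groups lay far apart. Group means were 360 ± 142 and 4991 ± 1498, 13.9-fold higher in injIM, with a log2 difference of 3.47 (SE 0.30), the values for which the gene was chosen.

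Cav2, the caveolin that associates with caveolin-1, measured 976, 779 and 947 in IM and 1869, 2374 and 1944 in injIM. Every punched-ear library was above every unpunched one, a pattern shown by 13.5% of all tested genes. The mean was 2.29-fold higher (2062 ± 272 against 901 ± 107, log2 difference 1.11, SE 0.29, adjusted p = 0.0217). Cavin1, the coat protein gene, moved the other way. It measured 572, 533 and 1017 in IM and 369, 333 and 183 in injIM, again without overlap, as 11.4% of tested genes did in the lower direction. Its mean fell from 707 ± 269 to 295 ± 98.5 (log2 difference -1.02, SE 0.24, adjusted p = 0.0111). Of the tested members other than Cav1, Cav2 was thus called higher and Cavin1 lower, where 8.18% of all 8656 genes were called, 4.15% higher and 4.03% lower. Both calls were lost with a pseudocount of 10 (adjusted p = 0.0774 for Cav2 and 0.102 for Cavin1), without the filter, with 1 pooled spread, in edgeR and in DESeq2. Cav2 also lost its call without IM replicate 1 or 3 or injIM replicate 1 or 2 (adjusted p up to 0.102), and Cavin1 without IM replicate 3 (adjusted p = 0.103).

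**Figure D1:**
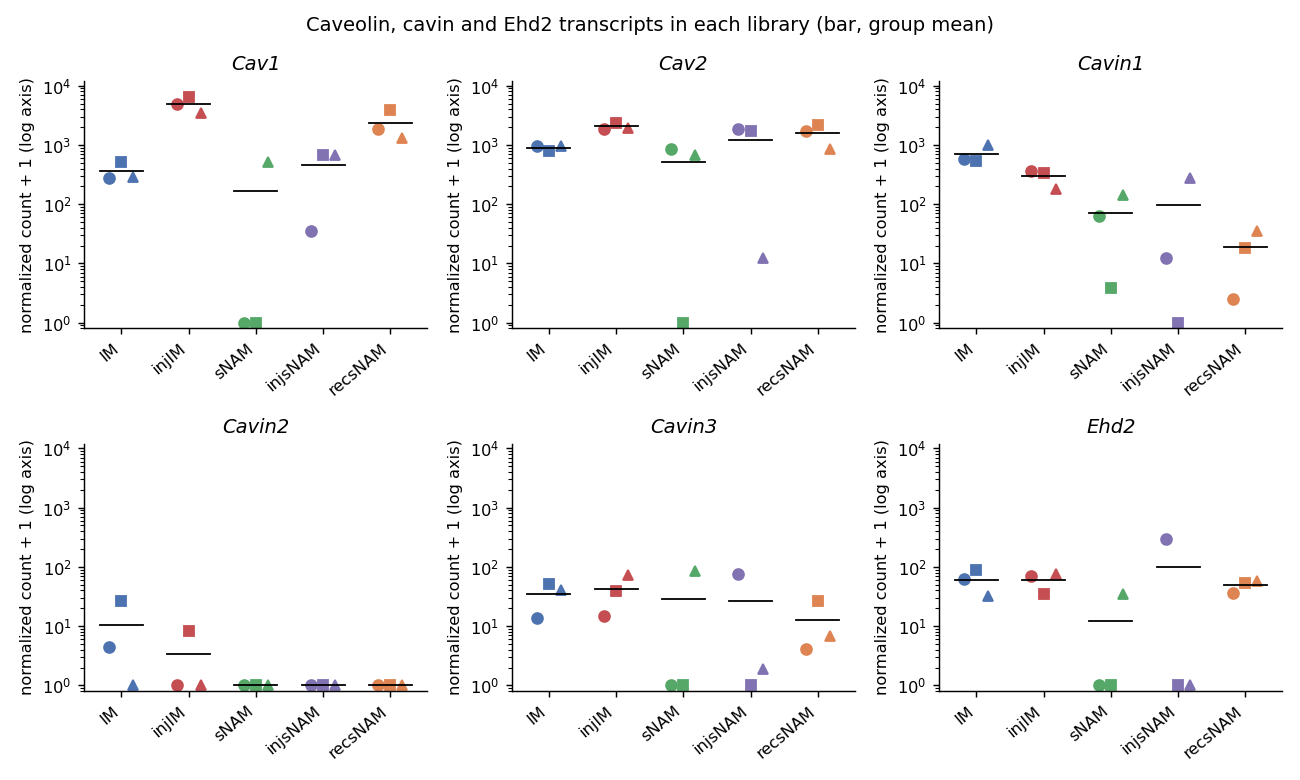
Normalized count + 1 on a log axis for the 6 genes, 1 panel each, in the 5 groups; symbols are libraries (circle, square and triangle for replicates 1, 2 and 3) and bars are group means. Cav1 lies between 3484 and 6480 in injIM and between 272 and 524 in IM, Cavin1 falls to between 1.56 and 34.4 in recsNAM, and Cavin2 is at 0 in all sNAM, injsNAM and recsNAM libraries.

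The remaining partners were low in interstitial macrophages of both ears. Cavin3, whose product binds caveolin-1 and cavin-1, measured 12.7, 49.7 and 39.8 in IM and 13.96, 38.8 and 71.4 in injIM, and the ranges overlapped. Ehd2 measured 61.7, 86.2 and 31.1 in IM and 69.0, 34.0 and 73.6 in injIM, with means of 59.7 ± 27.6 and 58.9 ± 21.7. Cavin2 had 39 reads over the 3 IM libraries and 9 over the 3 injIM libraries, all of the latter in injIM replicate 2. With the filter removed, none of the 3 genes was called, with adjusted p = 0.666 for Cavin2 and adjusted p = 1 for Cavin3 and for Ehd2.

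The proportions of the members differed with these shifts. Per kb of merged exon, Cav1 was below Cav2 in all 3 IM libraries, at 0.270, 0.651 and 0.292 times its level, and above it in all 3 injIM libraries, at 2.59, 2.64 and 1.74 times. Cavin1 per kb was 2.02, 0.976 and 3.42 times the Cav1 level in IM and 0.0707, 0.0493 and 0.0504 times in injIM. Cav1 and Cav2 together, as normalized counts per kb, were 367 to 386 in IM and 1595 to 2593 in injIM. The 3 cavins together were 168 to 307 in IM and 94.0 to 118 in injIM. Cav1, for which the set was chosen, made up 1454, 1882 and 1012 of the caveolin sums in injIM. Those sums and the ratios to Cav1 thus largely restate its values. Cavin1 made up most of the cavin sums, at 159, 148 and 283 in IM and 103, 92.7 and 51.0 in injIM.

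**Figure D2:**
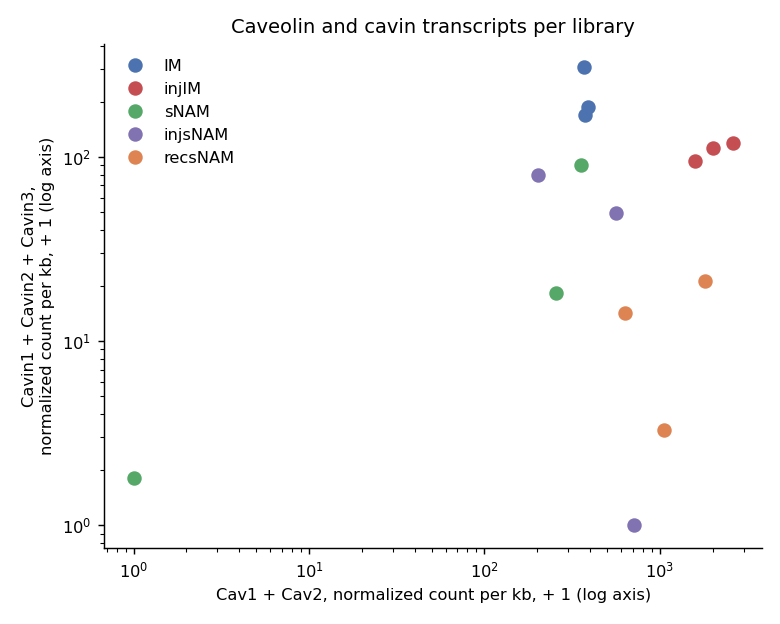
Each point is 1 library, coloured by group, with Cav1 + Cav2 on the x axis and Cavin1 + Cavin2 + Cavin3 on the y axis, both in normalized counts per kb of merged exon + 1 on log axes. The injIM libraries lie to the right of and below the IM libraries, and the recsNAM libraries lie lowest among the groups without large transcript loss, at cavin sums of 2.31 to 20.3.

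In recruited nerve-associated macrophages of the punched ear, Cav1 was higher than in IM in every library, Cav2 overlapped both interstitial groups, and Cavin1 was nearly gone. Cav1 measured 1875, 3936 and 1297 in recsNAM. All 3 libraries were above every IM library, as in 18.1% of tested genes, and replicate 2 reached into the injIM range. The mean of 2369 ± 1387 was 2.11-fold below that of injIM, a log2 difference of -1.15 (SE 0.36). Cav2 measured 1708, 2201 and 839, which overlapped both IM and injIM, and its difference from injIM was -0.45 (SE 0.36, adjusted p = 0.568).

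Cavin1 measured 1.56, 17.2 and 34.4 in recsNAM, from 2, 22 and 47 reads. These values were all below those of injIM, as in 12.5% of tested genes, and below those of IM, as in 17.5%. The mean of 17.7 ± 16.5 was 16.6-fold below injIM and fell by 1.72 on the log2 scale (SE 0.30, adjusted p = 0.000916), in a comparison that called 7.53% of genes, 3.19% higher and 4.34% lower. The call held with a pseudocount of 10, without the filter and without any single library (adjusted p up to 0.0255), and it was lost with a pooled spread (adjusted p = 0.279) and in edgeR (adjusted p = 1). Cavin1 per kb was 0.000797, 0.00419 and 0.0255 times the Cav1 level in recsNAM replicates 1, 2 and 3, below the ratio in every injIM library. Of the low members, Cavin3 measured 3.11, 25.7 and 5.86, Ehd2 measured 35.8, 51.5 and 55.7, and Cavin2 had no read in any recsNAM library, where 3 reads correspond to 2.20 to 2.34 normalized counts.

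Resident nerve-associated macrophages gave uneven values for every member but Cavin2, which had no read in them. Cav1 had no read in sNAM replicates 1 and 2, where 3 reads correspond to 2.89 and 8.73 normalized counts, and measured 507 in replicate 3. In injsNAM it measured 34.3, 675 and 679. All 3 injsNAM libraries were below every injIM library, as in 12% of tested genes, and the mean of 463 ± 371 was 10.8-fold below that of injIM (log2 difference -3.51, SE 0.72). Cav2 measured 845, 0 and 686 in sNAM and 1833, 1727 and 11.1 in injsNAM, so each group held 1 library with few or no reads. All injsNAM values of Cav2 were below the lowest of injIM, 1869, though replicate 1 only narrowly.

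The library without Cav2 reads was sNAM replicate 2, in which 25.8% of tested genes had no read, and the low injsNAM library was replicate 3, in which 8.79% had none. Loss of transcripts in these libraries and lower expression cannot be told apart from these values. Cavin1 measured 61.7, 2.91 and 142 in sNAM, all below IM, as in 18.4% of tested genes, and 11.4, 0 and 280 in injsNAM. Its difference between sNAM and IM was -2.29 (SE 0.76, adjusted p = 0.153), and a pooled spread brought it under the threshold (adjusted p = 0.014). The median difference of all genes in this comparison was -0.26. Cavin3 was detected in sNAM replicate 3 (83.3) and in injsNAM replicates 1 (75.7) and 3 (0.856), Ehd2 in sNAM replicate 3 (33.3) and injsNAM replicate 1 (291), and Cavin2 in none of these 6 libraries.

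The libraries of injsNAM and sNAM overlapped for all 6 members, where 7.35% of tested genes were higher and 4.69% lower without overlap. No member was called between them, where 0% of genes were called in limma and 586 had an unadjusted p under 0.05. DESeq2 called 725 genes in that comparison and edgeR 135. The log2 differences were 1.25 for Cav1 (SE 1.14, adjusted p = 0.918), 0.80 for Cav2 (SE 1.12, adjusted p = 0.95) and 0.02 for Cavin1 (SE 0.92, adjusted p = 0.999), and leaving out single libraries reversed the sign for Cav2 and Cavin1. In the comparison of sNAM with IM, which called 1.05% of genes (0.543% higher and 0.508% lower), Cav2 differed by -1.25 (SE 0.92, adjusted p = 0.566). In that of injsNAM with injIM, which called 0.485% (0.243% in either direction), Cav2 differed by -1.55 (SE 0.70, adjusted p = 0.391) and Cavin1 by -1.25 (SE 0.58, adjusted p = 0.406). The injury response of the resident nerve-associated cells minus that of the interstitial cells was -0.31 for Cav2 (SE 1.16, adjusted p = 0.995) and 1.04 for Cavin1 (SE 0.96, adjusted p = 0.987), in a test that called 0% of genes in limma, with 444 at an unadjusted p under 0.05, against 26 called in edgeR and 228 in DESeq2. No member was higher without overlap in sNAM than in IM or in injsNAM than in injIM, as 9.57% and 8.92% of tested genes were. For Cav2, the standard errors of the comparisons that involve sNAM were 0.92 to 1.16. A difference of the size seen for Cav2 between injIM and IM was not detectable in those comparisons.

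**Figure D3:**
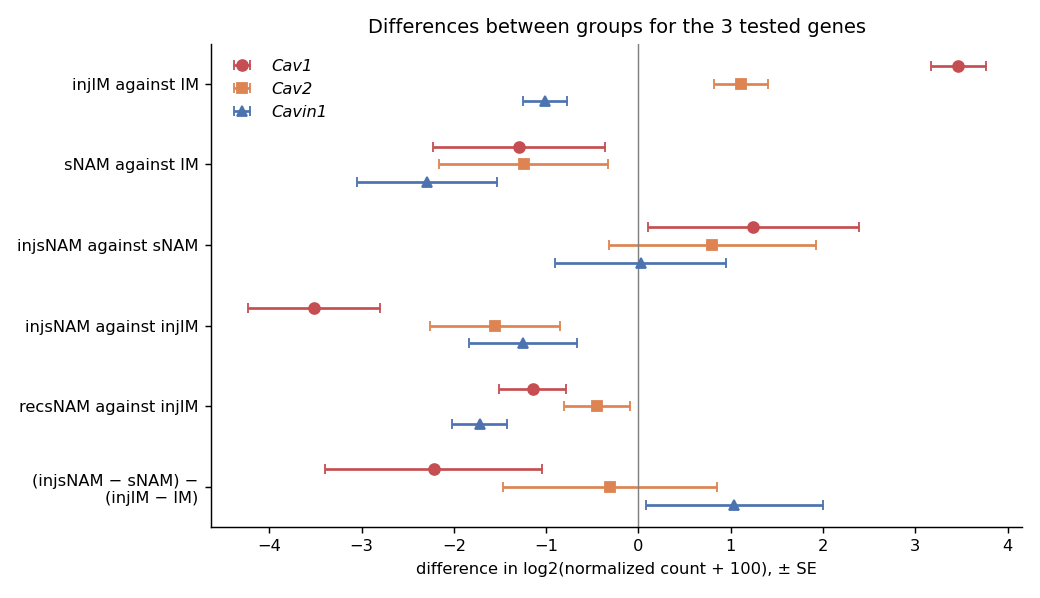
Differences in log2(normalized count + 100) between groups, with SE bars, for Cav1 (circles), Cav2 (squares) and Cavin1 (triangles); the last row is the difference of the injury responses of both populations. Cav1 and Cav2 lie to the right of 0 and Cavin1 to the left for injIM against IM, and the bars of comparisons with sNAM or injsNAM are the widest.

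Ordered by group mean, Cav1 ran from injIM (4991) through recsNAM (2369), injsNAM (463) and IM (360) to sNAM (169). The ranges of injIM and recsNAM overlapped, as did those of injsNAM, IM and sNAM, and recsNAM did not overlap the 3 lower groups. Cav2 ran from injIM (2062) through recsNAM (1583), injsNAM (1190) and IM (901) to sNAM (510.5), with each neighbour in this order overlapping the next. Cavin1 ran from IM (707) through injIM (295), injsNAM (97.2) and sNAM (69.0) to recsNAM (17.7), and only the step from IM to injIM was free of overlap between neighbours.

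The genes around Cav1 were examined within or across 500 kb on either side, where RefSeq lists 18 other genes, of which 10 are in the table and 6 were tested. Met, the hepatocyte growth factor receptor gene downstream of Cav1, measured 244, 427 and 109 in IM and 1358, 1703 and 894 in injIM. It was higher without overlap, as in 13.5% of tested genes, in a comparison that called 4.15% of genes higher. Its log2 difference was 2.04 (SE 0.30, adjusted p = 0.00024), and the call held without any single library (adjusted p up to 0.00355) but not with a pooled spread, in edgeR or in DESeq2. Tes, which encodes a focal adhesion protein and lies upstream of Cav2, rose by 0.49 (1164 ± 180 against 801 ± 115, SE 0.14, adjusted p = 0.0414). That call was lost without any 1 of 7 libraries, all IM libraries among them (adjusted p up to 0.272), without the filter and without the 6 resident nerve-associated libraries (adjusted p = 0.0833).

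Beyond these genes the differences were small. Tfec, a transcription factor gene of the MiT family, differed by 0.11 (SE 0.25, adjusted p = 0.877), the actin capping gene Capza2 by 0.00 (SE 0.09, adjusted p = 0.999) and St7 by -0.10 (SE 0.26, adjusted p = 0.889). Against injIM, recsNAM did not differ by the test in Met (-0.54, SE 0.37, adjusted p = 0.499), while Tes was called higher (1.00, SE 0.18, adjusted p = 0.00126) and St7 as well (1.06, SE 0.31, adjusted p = 0.0446). That comparison called 3.19% of genes higher. The lncRNAs Gm15473, Gm4876, D830026I12Rik and Gm46953 were below the filter, Gm46953 without a read in any library.

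**Figure D4:**
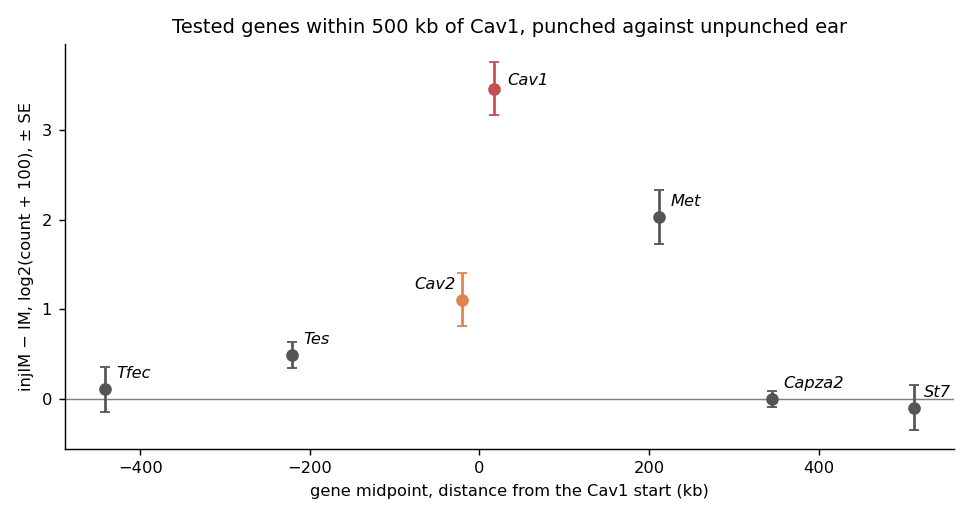
Difference between injIM and IM in log2(normalized count + 100), with SE bars, for Cav1 and the 6 tested genes within 500 kb, against the distance of each gene's midpoint from the Cav1 start in kb. Cav1 is highest at 3.47, Met and Cav2 follow at 2.04 and 1.11, and the outermost genes lie near 0.

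Lists of genes that work with or beside caveolae were read against the shares of all genes called, 4.15% higher and 4.03% lower for injIM against IM and 3.19% higher and 4.34% lower for recsNAM against injIM. Over all genes, the 708 calls between injIM and IM became 18 with a pooled spread, 4 in edgeR and 65 in DESeq2. Of 16 further coat, neck and scission genes, 8 were tested, and between injIM and IM none was called higher and 1 lower, with a median difference of -0.10 against 0.03 over all genes. The called gene was Dnm1, a dynamin that pinches off vesicles, which measured 1780.3, 1779.9 and 1860.2 in IM and 880.5, 820.7 and 389.5 in injIM (log2 difference -1.32, SE 0.21, adjusted p = 0.000469). Dnm1 was lower again in recsNAM, at 88.8, 60.8 and 94.5 (log2 difference from injIM -2.08, SE 0.26, adjusted p = 6.57e-05), so its order over IM, injIM and recsNAM was that of Cavin1. The call between injIM and IM was lost with a pooled spread and in edgeR. The dynamin gene Dnm2 measured 4569.9 ± 599 in IM and 4998 ± 943 in injIM, and Pacsin2, which encodes a membrane-bending protein of the caveola neck, 3701 ± 684 and 3662 ± 511. Between recsNAM and injIM, 3 of the 8 were called, Dnm1 and the EHD family gene Ehd4 lower (Ehd4 2664 ± 381 against 5647 ± 86.2, adjusted p = 0.00284) and the kinase gene Fyn higher (3513 ± 535 against 1759 ± 73.6, adjusted p = 0.00561). Dnm1 was also called lower in injsNAM than in injIM (adjusted p = 0.0311). Ehd1 was at 0 in all IM libraries and had 1 read in 1 injIM library.

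Of 22 receptors, channels and enzymes often placed in caveolae, 12 were tested and 1 was called between injIM and IM. This was Scarb1, the high-density lipoprotein receptor gene, which rose from 834 ± 178 to 1908 ± 338 (log2 difference 1.11, SE 0.17, adjusted p = 0.00024; lost with a pooled spread, in edgeR and in DESeq2). In recsNAM against injIM, 2 of the 12 were called lower, the scavenger receptor gene Cd36 (adjusted p = 0.00107) and the endothelin receptor gene Ednrb (adjusted p = 0.000509), and Ednrb was also called lower in sNAM than in IM (adjusted p = 0.0153). Among 18 genes of cholesterol supply and export, 15 were tested, and between injIM and IM 4 rose and 1 fell, with a median of -0.02 against 0.03 over all genes. The cholesterol exporters Abca1 (16886 ± 4191 against 10906 ± 459, adjusted p = 0.0357) and Abcg1 (3299 ± 790 against 2072 ± 298, adjusted p = 0.0292) and the cholesterol esterifying enzyme Soat1 (6463 ± 505 against 4313 ± 377, adjusted p = 0.012) were higher, and Srebf2, the regulator of cholesterol synthesis, was lower (2675 ± 674 against 3881 ± 577, adjusted p = 0.0489). Without injIM replicate 1 the adjusted p was 0.235 for Abca1, 0.0969 for Soat1, 0.133 for Abcg1 and 0.141 for Srebf2, and other single libraries also ended the calls of Abca1, Abcg1 and Srebf2. In recsNAM against injIM, Dhcr7 (adjusted p = 0.0364) and Insig1 (adjusted p = 0.0159) of this list were called lower. Of 6 tested flotillin and stomatin-like genes, none was called between injIM and IM, Stom was called lower in recsNAM than in injIM (adjusted p = 0.000798), and Erlin1 lower in injsNAM than in injIM (adjusted p = 0.0356).

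Clathrin genes, which serve the other main uptake route, gave 4 lower and no higher calls between injIM and IM among 19 tested of 23. These were the adaptor genes Dab2 (36862 ± 10582 against 55655 ± 6298, adjusted p = 0.0126) and Picalm (6672 ± 650 against 8877 ± 568, adjusted p = 0.0476), the scaffold gene Itsn1 (2766 ± 598 against 4353 ± 461, adjusted p = 0.0334) and the membrane-curving Bin1 (1944 ± 217 against 2816 ± 193, adjusted p = 0.0305). The median over the tested clathrin genes was -0.17. Between recsNAM and injIM, Cltb, Ap2a2, Bin1 and Itsn1 were called lower and Picalm higher (0.51, adjusted p = 0.0492), and between injsNAM and injIM Hip1r was called higher (2.10, adjusted p = 0.031) and Itsn1 lower (adjusted p = 0.0381). The calls of Itsn1, Bin1 and Picalm were each lost without any 1 of at least 5 libraries, and that of Dab2 held without each library (adjusted p up to 0.0382) but not without the 6 resident nerve-associated libraries (adjusted p = 0.0629).

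Markers of caveola-rich cell types were set beside these values. The 16 blood endothelial markers summed to 271 to 666 in IM and 321 to 452 in injIM, ranges that overlapped, and 1 of them was abundant enough to be tested and was not called. Tek, Cldn5 and Sox17 were at 0 in all injIM libraries, and Tek and Erg in all IM libraries. Cdh5, the endothelial cadherin gene, was higher in injIM without overlap, at 32.1, 26.3 and 24.2 in IM and 87.9, 55.8 and 32.6 in injIM. Egfl7 and Tie1 of the same list were lower without overlap. Egfl7 measured 38.0, 25.6 and 37.2 in IM and 1.64, 0.809 and 5.31 in injIM. Tie1 measured 47.3, 23.4 and 13.8 in IM and 12.3, 0 and 0 in injIM. Each was below the filter, and 13.5% of tested genes were higher and 11.4% lower without overlap. Smooth muscle and pericyte markers summed to 437 to 734 in IM and 628 to 1130 in injIM, ranges that overlapped. Tagln and Des were at 0 in both groups, and Myh11 in injIM. Cspg4 of that list measured 224, 519 and 420 in IM and 463, 881 and 559 in injIM, which overlapped. Neither of the 2 tested markers of that list was called. The 10 adipocyte markers summed to 2523 to 2794 in IM and 3506 to 3840 in injIM, without overlap. Most of each sum was Pnpla2, at 1884, 1976 and 2121 in IM and 2306, 2022 and 2708 in injIM. Acsl1, which macrophages also express, was the 1 marker called, at 528, 715 and 536 in IM and 1069, 1356 and 979 in injIM. Lipe was higher in injIM without overlap but not called, at 98.8, 103 and 54.5 in IM and 171, 122 and 152 in injIM. Adipoq and Cidec were at 0 throughout both groups, Plin1 and Lep throughout IM, and Retn throughout injIM. Fibroblast markers overlapped, at 4842 to 8283 in IM and 4972 to 18319.5 in injIM, and none was called.

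Mast cell markers were lower in injIM (4104 to 4464) than in IM (9481 to 12529.6), with 6 of 7 tested markers called lower, and so moved in the direction of Cavin1. In recsNAM they summed to 3080 to 4402, partly overlapping injIM, while Cavin1 was 16.6-fold lower there. Fibroblast sums in recsNAM were 853 to 4846, below those of injIM, with Dcn and Col6a1 called lower. The part of any of these cell types in the Cav1, Cav2 and Cavin1 differences was not tested. In bulk RNA, fewer cells that express a gene and less of its RNA per cell cannot be told apart.

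**Figure D5:**
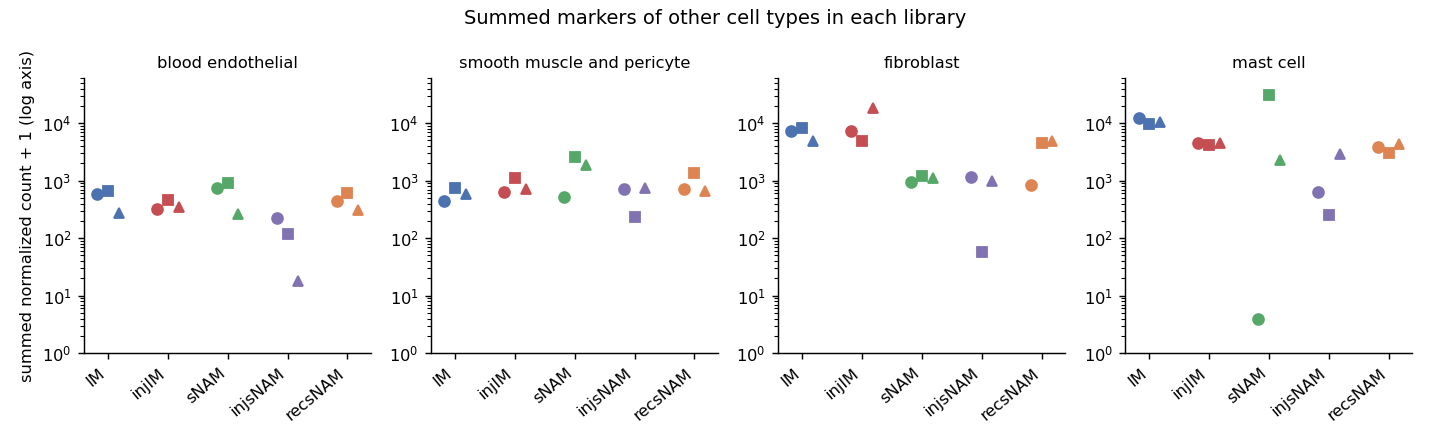
Summed normalized count + 1 on a log axis of the markers of 4 other cell types in each library, by group; symbols are replicates 1 (circle), 2 (square) and 3 (triangle). Endothelial and smooth muscle sums overlap between IM and injIM, and mast cell sums are lower in injIM than in IM.

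Genes whose values were among the 10 most like those of Cav1 over the 15 libraries, by Pearson r, included Yeats2 (0.892), the cytochrome P450 gene Cyp2s1 (0.879), Ap1s1 (0.869), Man2b1 (0.866), Gdf3 (0.859), Scd2 (0.851), Igf2r (0.846), Dmxl1 (0.846) and Gpd1l (0.842). Cyp2s1 measured 16.8 ± 15.2 in IM, 1207 ± 444 in injIM and 685 ± 440.2 in recsNAM. These libraries share groups of 3 and, in sNAM and injsNAM, transcript loss, so the coefficients describe this set only. Of the 10, 2 remained among the first 10 over the 9 IM, injIM and recsNAM libraries, Cyp2s1 among them. Among 8655 genes ranked, Cav2 was at place 1232 (r = 0.51) over all libraries and at place 55 (r = 0.883) over those 9. Cavin1 was at place 4388 (r = 0.144) and, over those 9, at place 7561 (r = -0.496).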

How the data were processed

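The deposited signal of a gene is its read count after the authors scaled each library by a single factor. The submitters' processing notes name STAR 2.7.2b and cutadapt, besides bcl2fastq 2.18, DESeq2 1.24.0 under R 3.6.1 and the mm10 build, and per the labels' protocols cDNA came from 250 pg of RNA by 13 PCR cycles. Neither read counter nor annotation is stated there. Division by the step between low values gave whole reads, to a tolerance of 0.01, for 100% of values in every library. They carry no molecular identifiers, so limits from 3 reads cover counting error only.

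The members, lists, motifs and settings were chosen with earlier results of these data known. Groups were compared with limma 3.58.1 (R 4.3.3, limma-trend, robust empirical Bayes) on log2(deposited value + 100), for genes with a mean of 100 or more, with a mean for each group, array weights shared within it (recsNAM 1.67, IM 3.43, injIM 3.21, injsNAM 0.311, sNAM 0.175) and Benjamini-Hochberg adjustment over all 8656 genes. The weights allow for the wider spread of sNAM and injsNAM. Alternatives were a pseudocount of 10, no filter, a pooled spread, edgeR 4.0.16 and DESeq2 1.42.0 on recovered reads, the replicate block and leaving out each library. The code for these tests was first checked on simulated counts, and every value given comes from the deposited data. Replicate libraries all differed by more than sampling of reads would give (lowest chi-square per degree of freedom 32.17). Named genes are the members, the 10 genes most like Cav1 (1 is not reported here), its neighbours, and up to 4 called genes per list; Dnm2, Pacsin2 and Ehd1 were added after their values were seen. Exon lengths are from GENCODE M21.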

Additional observations from a re-analysis of the deposited data

How the results depend on the processing

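Between injIM and IM, the 708 called genes became 315 without the filter, 18 with a pooled spread, 4 in edgeR with either normalization and 65 in DESeq2, and 399 to 826 with single libraries left out (399 without IM replicate 3). Cav2 kept its direction there and missed the threshold with a pseudocount of 10 (1.18), without the filter (1.11), with a pooled spread (1.11), in edgeR (1.15 with TMM, 1.19 with the deposited factors) and in DESeq2 (1.20), and ran from 1.01 to 1.17 with single libraries left out. Cavin1 likewise missed it at -1.23, -1.02, -1.02, -1.30, -1.26 and -1.26, and ran from -1.17 to -0.76. Cav1 ran from 3.26 to 3.71 with single libraries left out. For recsNAM against injIM, Cavin1 missed it with a pooled spread (-1.72) and in edgeR (-4.01 and -4.05), had no adjusted p in DESeq2, and ran from -1.95 to -1.58, and the 652 calls became 362 without the filter, 22 with a pooled spread, 9 and 11 in edgeR and 127 in DESeq2 (272 without recsNAM replicate 1 to 899). For sNAM against IM, 91 calls became 0 with a pseudocount of 10, 727 with a pooled spread, 332 and 351 in edgeR and 922 in DESeq2 (0 to 107 with single libraries left out). For injsNAM against sNAM, 0 calls became 4 without the filter, 363, 135, 146 and 725 (0 to 1). For injsNAM against injIM, 42 calls became 102, 69 with a pooled spread and 314 in DESeq2 (2 to 75). For the difference of the responses, 0 calls became 6, 4, 26, 31 and 228. Signs reversed for Cavin1 in injsNAM against sNAM with a pseudocount of 10 (-0.39) and without sNAM replicate 2 (-0.29) or injsNAM replicate 3 (-0.59), and for Cav2 there without sNAM replicate 2 (-0.24), with single libraries left out reaching 0.37 and 2.16. The Cav2 response difference reversed in edgeR (0.024 with TMM, 0.0215 with the deposited factors) and DESeq2 (0.0165) and without sNAM replicate 1 (0.27), sNAM replicate 3 (0.14) or injsNAM replicate 3 (1.05), the lowest being -1.35 without sNAM replicate 2. Of the 10 genes most like Cav1, 5 were shared under Spearman's rho, 2 over 9 libraries and 4 with a pseudocount of 10. The cause of these shifts was not tested. Using only the IM, injIM and recsNAM libraries, a setting chosen after seeing the data, kept the calls of Cav2 (adjusted p = 0.00652) and Cavin1 (adjusted p = 0.0259) between injIM and IM. With the replicate number as a block, injsNAM against injIM had 70 calls and recsNAM against injIM 1211, and for injIM against IM Cav2 (adjusted p = 0.0182) and Cavin1 (adjusted p = 0.0151) kept theirs. Deviations of same-numbered libraries correlated at -0.02 to 0.39 over 30 pairs, and 12 of 15 libraries correlated best with their own number, which does not establish a pairing.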
